A study of Rattus norvegicus with 50 samples.

Results

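Msln, Upk1b, Upk3b, Lrrn4, Wt1, Bnc1 and Calb2 are 7 genes used as markers of the mesothelium, and they were followed in the lungs of rats that had inhaled titanium dioxide (TiO2) nanoparticles. They were taken by symbol from the gene spots of the arrays, where 18 spots of 10 probes carried their names, and they were 7 of the 25208 genes tested. The genes had been selected on their levels in exposed and control rats of these arrays, so their differences are given as a description. Where a member is said to have passed the limits set for all genes, that too describes its value, and no p is given for a member. Male F344 rats, an inbred strain, aged 12 weeks inhaled the test air through the nose only, for 6 hours on each of 5 days a week, and did so for 4 weeks. Control rats received air and exposed rats an aerosol of TiO2 P25 nanoparticles at 10 mg/m3. RNA came from the whole accessory lobe of the lung, taken directly when exposure ended (D0) or after 3, 28, 90 or 180 further days (D3, D28, D90 and D180). Each day had 5 control and 5 exposed rats, each with its own array.

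The mesothelium is the single layer of flat cells that covers the lung and lines the chest cavity, where it makes a slippery surface and the lubricating fluid between the moving sheets. Its cells are epithelial in shape but arise from the mesoderm, and they carry both keratins and transcription factors of mesodermal tissue. In lung homogenate they are a minor population at the edge of the lobe. In such bulk RNA, fewer mesothelial cells and less RNA of a gene per cell cannot be told apart.

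Each gene was read by the probe with the highest mean signal among its probes. The first 30 bases of each of these 60-base probes are shown because all values below rest on them, with the position that the array annotation gives on the rn4 build of the rat genome. The positions were not checked against a genome here, and the part of the gene in which each lies was not analysed here.
Msln, chr10:15017206-15017265, minus strand: cagctctattgtcgagccccatcttgacca
Upk1b, chr11:63767255-63767314, plus strand: tgtgtttgctgtcacaatagtttgcttgca
Upk3b, chr12:21746939-21746998, minus strand: tgagcagctgcggattggctccttcatggg
Lrrn4, chr3:120667859-120667918, minus strand: gacacacacctggtggccttcaagaaccca
Wt1, chr3:90577175-90577234, plus strand: atcactgtgtggatgtcaaccttacagtgt
Bnc1, chr1:138189723-138189782, minus strand: cccctggcttaaagatagagagagccaaca
Calb2, chr19:40023073-40023132, minus strand: cctgtcttctcgtttaccaaagaagagttt
Wt1 had 3 probes and Upk1b had 2, and each of the other genes had 1.

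The median processed signal of the 50 arrays ran from 198 to 473 fluorescence units, and between 68.7% and 84.5% of gene spots were well above background by the mark of the extraction software. The arrays lay on 7 slides. Those of D0, D3 and D28 were on slides 1 to 4 and those of D90 and D180 on slides 5 to 7, except that exposed rat 1 of D3 was on slide 7, where no control rat of D3 was. RNA of skeletal muscle genes was high in exposed rat 2 of D28, so that values at D28 are also given without this rat. Retnla and Lpo were taken as checks of exposure, with earlier results of these data known, so they are no independent evidence of it. At D3 Retnla, a secreted protein of type 2 inflammation, was over-expressed by 3.17 ± 0.18 on the log2 scale (SE, n = 5 per group, limma adjusted p = 3.06e-17). Lpo, airway lactoperoxidase, was over-expressed by 3.27 ± 0.30 (limma adjusted p = 2.82e-11).

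Levels are normalized log2 intensities, on which a difference of 1 is a doubling, and they can be compared between rats for a gene but not between genes. Msln, Upk1b, Upk3b, Lrrn4, Wt1 and Bnc1 were well above background on all 50 arrays. Calb2, which encodes the calcium-binding protein calretinin, was well above background on 2 of 50 arrays only. Calretinin is among the usual markers of mesothelial cells, so the label rests here on the other 6 genes, which were measured in every rat.

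At D3 all 7 genes had a lower mean in exposed than in control rats, except that dim Calb2 was at 0.01 with the arrays scaled to their 75th percentile. A gene was called under-expressed when its adjusted p was below 0.05 and its change at least 1.5-fold, which is 0.58 on the log2 scale. By this rule Wt1, Upk1b, Bnc1 and Upk3b were called, 4 of 7 genes, and 1.51% of all genes tested were called lower at D3. With the adjusted p alone, Lrrn4 joined them, where 5.53% of all genes passed in that direction. The levels of the 4 genes in exposed rats were between 0.611 and 0.661 of those in controls. The median difference of the 6 well measured genes was -0.61 on the log2 scale, beside -0.01 over all genes tested, of which 51.3% were lower. These counts describe genes that were chosen for this pattern, and nothing about chance is read from them.

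**Figure D1:**
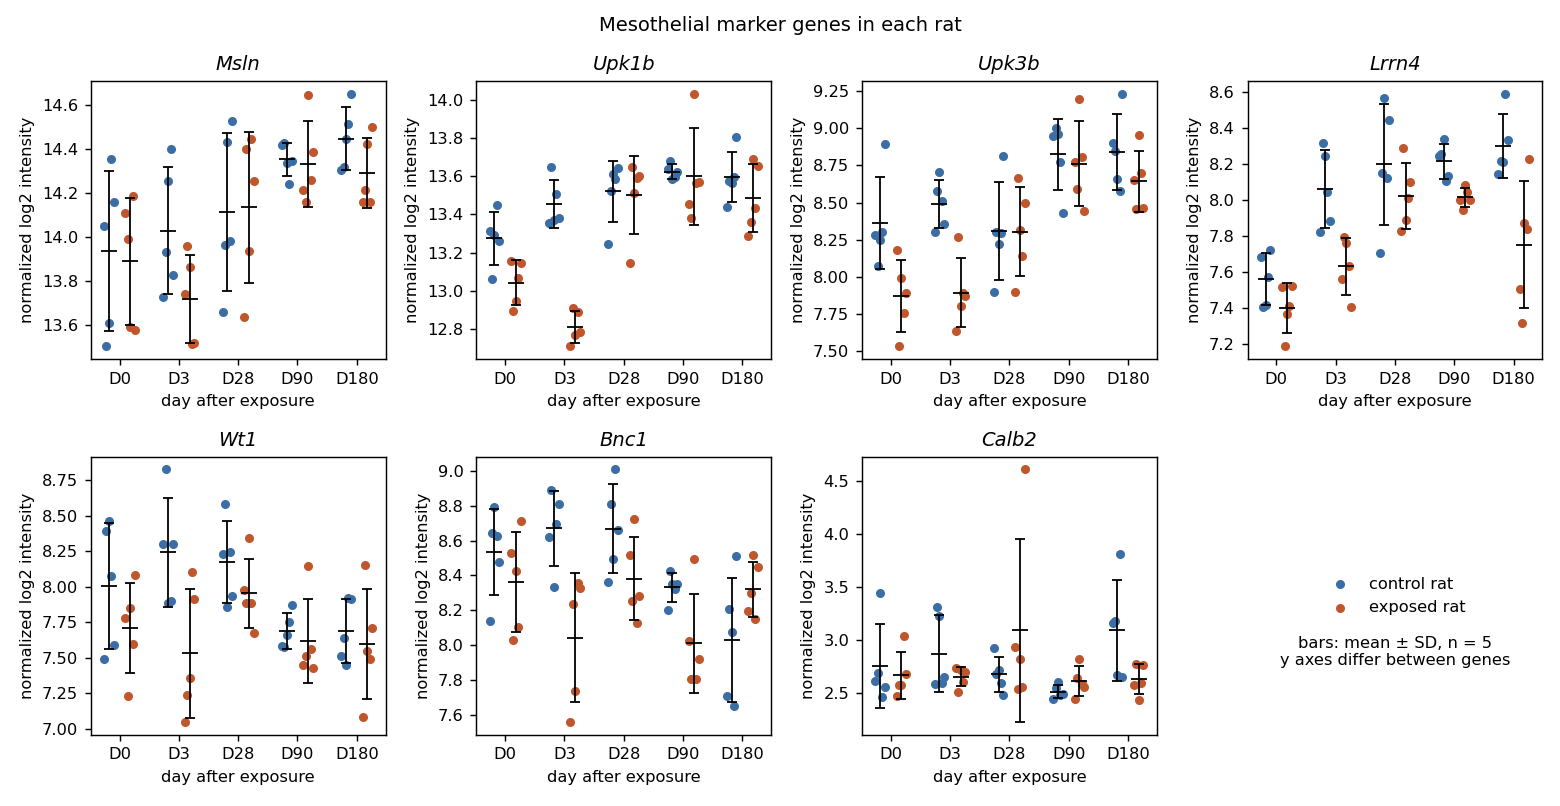
Normalized log2 intensity (y axis, own scale for each gene) of the 7 mesothelial marker genes by day after exposure (x axis). Each point is 1 rat and bars give the mean ± SD of 5 rats. At D3 the exposed rats of Upk1b lay between 12.71 and 12.91 and all controls at 13.36 or above, whereas at D28 both groups of this gene averaged 13.50 and 13.52.

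Among the genes for surface proteins, Upk1b had the cleanest separation. Upk1b encodes a tetraspanin that forms plaques with other uroplakins in the bladder lining. At D3 its levels were 13.36, 13.65, 13.37, 13.51 and 13.38 in the 5 control rats and 12.71, 12.91, 12.77, 12.89 and 12.78 in the 5 exposed rats. The groups did not overlap, and the difference was -0.64 ± 0.10 (limma SE, n = 5 per group). The second probe of Upk1b gave -0.50 ± 0.08 at D3 (SE of its own 10 rats).

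Upk3b, a uroplakin that is found on mesothelial cells as well as in bladder, stood at 8.30, 8.58, 8.70, 8.51 and 8.35 in control rats of D3 and at 7.64, 8.27, 7.80, 7.89 and 7.87 in exposed rats. The highest exposed rat lay just under the lowest control, so that these groups did not overlap either. The difference was -0.60 ± 0.16, a little beyond the 1.5-fold limit.

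Lrrn4, a membrane protein with leucine-rich repeats, was at 7.82, 8.32, 8.24, 8.04 and 7.89 in control rats of D3 and at 7.56, 7.80, 7.76, 7.63 and 7.41 in exposed rats. All exposed rats were again below all controls, with a difference of -0.43 ± 0.13, which is short of the fold limit. Upk1b, Upk3b and Lrrn4 thus did not overlap between groups at D3, 3 of 7 genes, where 3.42% of all genes had all 5 exposed rats below all 5 controls.

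Msln encodes mesothelin, a surface glycoprotein to which the mucin Muc16 binds. Its levels at D3 were 13.73, 13.93, 14.26, 14.40 and 13.83 in control rats and 13.74, 13.96, 13.86, 13.52 and 13.52 in exposed rats. Here the groups overlapped, with 3 exposed rats inside the range of the controls, and the difference of -0.31 ± 0.16 was not called.

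Among the transcription factors, Wt1 encodes a zinc finger protein needed in the embryo for the mesothelium and the kidney. It was at 8.30, 8.83, 7.88, 7.90 and 8.30 in control rats of D3 and at 7.05, 7.24, 7.36, 8.10 and 7.92 in exposed rats. Exposed rats 1, 2 and 3 were below all controls, whereas exposed rats 4 and 5 lay within the control range. The difference was -0.71 ± 0.21, with the largest SE among the 6 well measured genes. The 2 dimmer probes of Wt1, well above background on 27 and 19 of 50 arrays, gave -0.27 ± 0.43 and -0.12 ± 0.35 at D3 (SE of their own 10 rats), both smaller than their SE.

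Bnc1 encodes basonuclin, a zinc finger protein of stratified and mesothelial epithelia. Its levels at D3 were 8.62, 8.89, 8.33, 8.69 and 8.81 in control rats and 7.56, 8.23, 7.73, 8.36 and 8.33 in exposed rats. All exposed rats but rat 4 lay below every control, rat 5 narrowly, and the difference was -0.63 ± 0.16. For Calb2 the control rats had 2.58, 3.31, 3.23, 2.59 and 2.65 and the exposed rats 2.73, 2.51, 2.72, 2.61 and 2.70. None of these 10 spots of Calb2 was well above background, so no order is read from them.

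Exposed rat 1 of D3, the one on slide 7, had the lowest level of Wt1, Bnc1, Upk1b and Upk3b among the exposed rats. Without this rat the differences at D3 were -0.59 ± 0.21 for Wt1, -0.51 ± 0.17 for Bnc1, -0.62 ± 0.11 for Upk1b and -0.53 ± 0.17 for Upk3b, and Upk1b alone was still called. The same single gene was called without control rat 2 or without exposed rat 3. Over the 10 fits that each left out 1 rat of D3, Upk1b was called in 10 (-0.67 to -0.59), Bnc1 in 7 (-0.71 to -0.51), Upk3b in 6 (-0.69 to -0.53) and Wt1 in 6 (-0.85 to -0.56). With slide as a block in the fit they were -0.54 ± 0.16, -0.49 ± 0.14, -0.63 ± 0.10 and -0.56 ± 0.12 in the same order. Upk1b was then the 1 member called, and the other 3 were short of the fold limit. Control and exposed rats of D3 shared slides 1, 2, 3 and 4. Within each of these 4 slides the exposed rats were below the controls for Msln, Upk1b, Upk3b, Lrrn4, Wt1 and Bnc1, and for Calb2 on 2 of 4. The within-slide differences ran from -0.74 to -0.46 for Upk1b, from -0.71 to -0.41 for Upk3b and from -0.54 to -0.21 for Msln.

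A further 23 genes that are used as markers of mesothelial cells or are abundant in them were tested in the same fit. This list was written with earlier results of these data known. Some of its genes, such as the keratins Krt7, Krt8, Krt18 and Krt19 as well as Pdpn and Ezr, are also made by lung epithelium. At D3, 7 of the 23 were under-expressed and none was over-expressed, where 1.51% of all genes were called lower. The list as a whole had 21 of 23 genes lower and a median difference of -0.46, beside -0.01 over all genes.

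Muc16, the large surface mucin that binds mesothelin, was at 10.72, 10.75, 10.70, 10.79 and 10.76 in control rats of D3 and at 9.75, 10.09, 9.78, 10.14 and 10.03 in exposed rats. No exposed rat came near the narrow range of the controls, and Muc16 was under-expressed with a difference of -0.78 ± 0.13 (limma adjusted p = 1.45e-05). Nkain4, a membrane protein that interacts with the sodium pump, was at 11.18, 11.33, 11.05, 11.19 and 11.19 in control rats and at 10.33, 10.47, 10.46, 10.45 and 10.33 in exposed rats. Here too the groups were far apart, and the difference of -0.78 ± 0.07 had the smallest p of the list (limma adjusted p = 5.37e-11).

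Gpm6a, a membrane glycoprotein best known from neurons, was under-expressed at D3 with a difference of -0.80 ± 0.15 (limma adjusted p = 0.000214). Pkhd1l1, a very large membrane protein, differed by -0.72 ± 0.16 (limma adjusted p = 0.00133), and Tbx18, a T-box transcription factor, by -0.63 ± 0.12 (limma adjusted p = 0.000296). The tight junction gene Cldn15 differed by -0.63 ± 0.18 (limma adjusted p = 0.0149) and Igfbp6, a secreted binding protein of insulin-like growth factors, by -0.63 ± 0.20 (limma adjusted p = 0.0303). In 6 of the 23 genes, namely Gpm6a, Muc16, Nkain4, Ildr2, Tbx18 and Efemp1, all 5 exposed rats were below all controls, as they were in 3.42% of all genes. The call of Cldn15 was lost without control rat 2, control rat 5 or exposed rat 3 (-0.74 to -0.44 over the 10 fits), that of Igfbp6 without control rats 2, 3 or 4 or exposed rats 4 or 5 (-0.72 to -0.53) and that of Tbx18 without control rat 4 (-0.68 to -0.58). Those of Muc16, Nkain4, Gpm6a and Pkhd1l1 did not rest on any 1 rat. With slide as a block, Cldn15 was -0.53 and no longer past the fold limit, whereas Muc16, Nkain4, Gpm6a, Pkhd1l1, Tbx18 and Igfbp6 were called again at -0.75, -0.77, -0.65, -0.61, -0.64 and -0.72.

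**Figure D2:**
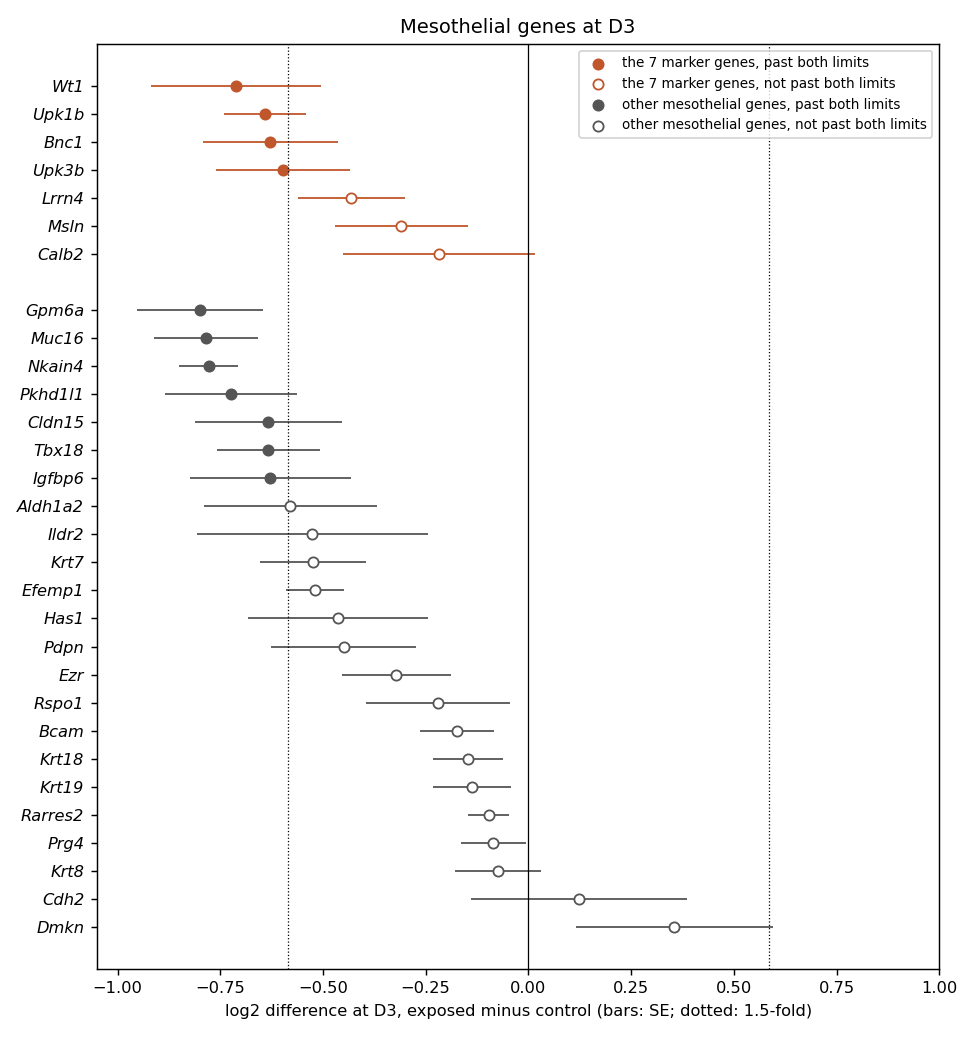
Log2 difference of exposed minus control rats at D3 (x axis) for the 7 marker genes (orange, upper block) and 23 other mesothelial genes (grey, lower block). Points are limma estimates, bars their SE, filled points passed both the adjusted p and the 1.5-fold limit (dotted lines). All 7 marker genes and 21 of 23 others lay left of 0, with Dmkn and Cdh2 to the right (Calb2 was at 0.01 with 75th percentile scaling).

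Genes of other cell types were also lower at D3, and their values stand here beside the mesothelial ones. A list level is the mean over its genes of the log2 level relative to the mean of all 50 rats. The level of the 7 mesothelial genes ran from -0.01 to 0.39 in control and from -0.54 to -0.25 in exposed rats of D3. The endothelial list (Pecam1, Cdh5, Cldn5, Kdr and Tek) had 5 of 5 genes lower, none called, with levels from -0.10 to 0.18 in control and from -0.41 to -0.24 in exposed rats. Among 6 alveolar epithelial genes 3 were lower, and Hopx was called under-expressed, with levels from -0.03 to 0.15 and from -0.20 to -0.04. The 6 ciliated cell genes were all lower and none was called. All 5 smooth muscle genes were lower and none was called, and the level of that list overlapped between groups. Of 3 lymphatic endothelial genes 2 were lower and 1, Lyve1, was called under-expressed (-0.64), with levels from -0.18 to 0.11 in control and from -0.45 to 0.05 in exposed rats.

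The macrophage and leukocyte list had 4 of 6 genes higher at D3 and Itgam called over-expressed, with levels from -0.16 to 0.28 in control and from -0.00 to 0.71 in exposed rats. The cardiac muscle list, which can come from the sleeve of heart muscle around pulmonary veins, had 7 of 8 genes lower, none called, and overlapping levels. All 3 red blood cell genes measured were lower and all 6 fat genes higher, with none called in either list. Among the lists plotted, the levels of both mesothelial lists and of the endothelial, alveolar and ciliated lists had every exposed rat below every control rat at D3, and those of smooth muscle, fibroblast, cardiac muscle and leukocyte lists overlapped. What part the makeup of the tissue had in the mesothelial values was not tested.

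**Figure D3:**
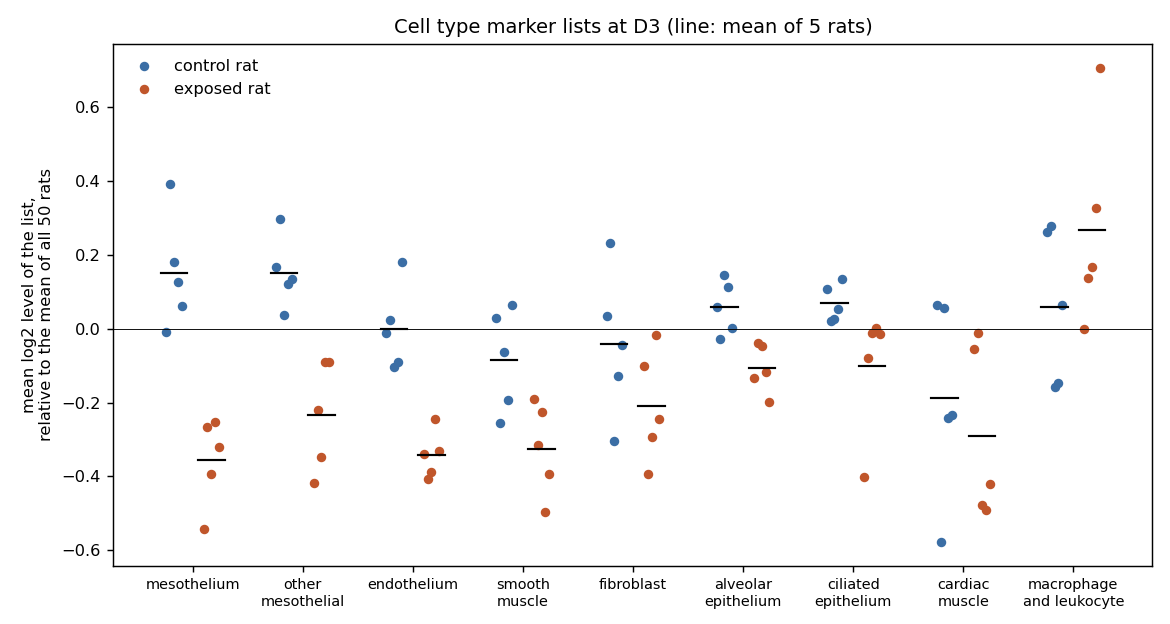
Mean log2 level of each marker list at D3, relative to the mean of all 50 rats (y axis), for the lists named on the x axis. Points are rats and lines the means of 5 rats. The mesothelial list ran from -0.54 to -0.25 in exposed and from -0.01 to 0.39 in control rats, and of the lists plotted the leukocyte list had the higher mean in exposed rats.

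At D0, right after the last exposure, all 7 genes again had lower means in exposed rats, but none was called, while 1.51% of all genes were called lower and 51.7% were lower by any amount. The differences ran from -0.49 to -0.04 with a median of -0.20 over the 6 well measured genes. By limma's unadjusted p below 0.05 there were 2 of 7 genes, Upk3b and Upk1b, as against 23.4% of all genes in either direction. Upk3b was at 8.28, 8.07, 8.25, 8.30 and 8.89 in control rats of D0 and at 8.18, 7.53, 7.99, 7.76 and 7.89 in exposed rats. Of the exposed rats 4 lay below all controls, and the difference was -0.49 ± 0.16, short of the fold limit. Upk1b differed by -0.23 ± 0.10, Wt1 by -0.30 ± 0.21 and Msln by -0.04 ± 0.16.

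Markers of endothelium, smooth muscle and lymphatic endothelium were lower at D0 as well, by more than the median of -0.20 for the mesothelial genes. All 5 endothelial genes were lower and 2 were called, with a median of -0.48 and levels from 0.16 to 0.38 in control and from -0.36 to -0.16 in exposed rats. All 5 smooth muscle genes were lower and 2 were called, with a median of -0.58 and levels from 0.23 to 0.50 in control and from -0.44 to -0.08 in exposed rats. All 3 lymphatic endothelial genes were lower and 1 was called, with a median of -0.57. Medians of the other lists were -0.23 for fibroblast, -0.20 for alveolar, -0.19 for red blood cell, -0.10 for cardiac muscle and -0.05 for ciliated cell genes. Those of fat (0.09), skeletal muscle (0.12) and leukocyte genes (0.41) were higher in exposed rats. The part of these cell types in the mesothelial values at D0 was not tested.

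As a description, the effect at D3 minus that at D0 was -0.41 ± 0.14 for Upk1b, -0.26 ± 0.23 for Msln and -0.11 ± 0.23 for Upk3b. All 7 genes had the lower value at D3 in this sense, by -0.45 to -0.11.

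At D28 the means of exposed and control rats were close, with 5 of 7 genes lower, none called, and 0.468% of all genes called lower. No member had an unadjusted p below 0.05. Upk3b differed by -0.00 ± 0.16, Upk1b by -0.02 ± 0.10, Msln by 0.02 ± 0.16, Lrrn4 by -0.17 ± 0.13, Wt1 by -0.22 ± 0.21 and Bnc1 by -0.29 ± 0.16. Without the exposed rat with skeletal muscle RNA, the values for the 6 genes ran from -0.25 for Bnc1 to -0.04 for Msln. Calb2 was the one gene with a clearly higher mean in exposed rats of D28, by 0.41 ± 0.23, and this rested on exposed rat 5. Its level there was 4.61, well above background, whereas the other exposed rats had 2.93, 2.53, 2.82 and 2.55 and the controls 2.92, 2.68, 2.72, 2.59 and 2.47. Without that rat the difference was 0.03 ± 0.17.

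At D90 none of the 7 genes was called by limma, none had an unadjusted p below 0.05, and 0.135% of all genes were called lower. Lrrn4 was the one member whose groups did not overlap. It was at 8.25, 8.25, 8.34, 8.11 and 8.13 in control rats of D90 and between 7.95 and 8.08 in the 5 exposed rats, all below every control, which 1.63% of all genes were at that day. The difference was small, -0.20 ± 0.13. Bnc1 was at 8.20, 8.43, 8.35, 8.32 and 8.35 in control rats of D90 and at 8.02, 7.81, 8.49, 7.81 and 7.92 in exposed rats, a difference of -0.32 ± 0.16. All exposed rats but rat 3 were thus below every control, and the same held for Wt1 (-0.07 ± 0.21) and Upk1b (-0.02 ± 0.10).

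Exposed rat 3 of D90 had the highest level among the 10 rats of that day for Msln (14.65), Upk3b (9.20), Wt1 (8.14), Bnc1 (8.49) and Upk1b (14.03), and the highest among the exposed rats for Lrrn4 (8.08). The mean level of the members relative to all 50 rats was 0.43 in this rat, from -0.10 to 0.00 in the other exposed rats and from 0.12 to 0.22 in the controls. Muc16 was likewise at 11.41 in this rat and from 10.27 to 10.49 in the other exposed rats. Without it the differences at D90 were -0.44 ± 0.17 for Bnc1, -0.22 ± 0.14 for Lrrn4, -0.20 ± 0.21 for Wt1, -0.17 ± 0.17 for Upk3b, -0.13 ± 0.09 for Upk1b and -0.10 ± 0.17 for Msln, and none was called. With all rats those of Upk3b and Msln were -0.06 ± 0.16 and -0.02 ± 0.16.

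At D180 Lrrn4 was at 8.15, 8.22, 8.21, 8.59 and 8.34 in control rats and at 7.51, 7.32, 7.88, 7.84 and 8.23 in exposed rats. Of the 5 exposed rats 4 lay below all controls, with a difference of -0.55 ± 0.13 that was past the adjusted p limit, as 0.258% of all genes were in that direction, but just short of the fold limit. Over the 10 fits without 1 rat it ran from -0.67 to -0.44, with -0.67 and a call without exposed rat 5, and it was -0.57 without exposed rat 4, whose RNA also held skeletal muscle genes. No other member was past either limit at D180, where 0.0793% of all genes were called lower. Msln differed by -0.16 ± 0.16, Upk3b by -0.20 ± 0.16, Upk1b by -0.11 ± 0.10, Wt1 by -0.09 ± 0.21 and Bnc1 by 0.29 ± 0.16.

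Over the 5 days Lrrn4 was thus the one gene of the 7 whose exposed mean was below that of controls by more than 1 SE at every day, from -0.55 to -0.16. In the order of size its differences were largest at D180, then D3, D90, D28 and D0, and those of D90, D28 and D0 lay within 1 SE of each other. Within the slides that held both groups, exposed rats were lower for Lrrn4 on 3 of 4 slides at D0, on 4 of 4 at D3, and on 3 of 3 for each later day. The genes were chosen with these values in view, so this is a description.

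In control rats, means at D180 were above those at D0 for the surface protein genes and below them for the transcription factors. The mean of Lrrn4 was 7.56 ± 0.15 at D0 and 8.30 ± 0.18 at D180 (SD, n = 5). That of Msln was 13.94 ± 0.36 and 14.45 ± 0.14, and that of Upk3b 8.36 ± 0.31 and 8.84 ± 0.25. For Bnc1 these means were 8.53 ± 0.25 and 8.03 ± 0.36, and the ranges of Wt1, 7.49 to 8.46 and 7.45 to 7.92, overlapped. Lrrn4 was called higher than at D0 in control rats of D28 (0.64 ± 0.13), D90 (0.65 ± 0.13) and D180 (0.74 ± 0.13), where 1.54%, 3.25% and 2.99% of all genes were called higher. Control rats of D3 were already above those of D0 by 0.50 ± 0.13, short of the fold limit. With slide as a block this D3 difference was 0.57 ± 0.11. D0 and D28 shared slides, and with slide as a block the difference of Lrrn4 at D28 was 0.69 ± 0.11. With normexp background correction the D28 and D90 differences of Lrrn4 were 0.50 and 0.50, short of the fold limit.

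For D90 and D180, day and slide cannot be told apart but for the single array of exposed rat 1 of D3, which links both sets of slides. With slide as a block, which leans on that array, the difference between D180 and D0 was 0.22 ± 0.32 for Wt1 in place of -0.32 ± 0.21 and 0.02 ± 0.27 for Bnc1 in place of -0.50 ± 0.16. The difference of Lrrn4 was then 0.95 ± 0.23 and that of Msln 0.58 ± 0.16.

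Whether the genes varied together from rat to rat was described by the correlation over the 50 rats after the mean of each group was taken off. The points share arrays and slides, and no p is given. Of the 15 pairs among the 6 well measured genes 10 were positive, with a median r of 0.46. For each pair, r was also taken without 2 rats, those farthest from the median of the gene named first. The 2 rats thus depended on that gene. The surface protein genes went together, with r of 0.64 for Msln and Upk1b (Spearman's rho 0.58, r 0.56 without its 2 rats). For Lrrn4 and Upk1b r was 0.62 (rho 0.63, r 0.56 without its 2 rats). For Msln and Lrrn4 it was 0.61 (rho 0.64, r 0.55 without its 2 rats). Wt1 and Bnc1, the transcription factors, had an r of 0.65 (rho 0.63, r 0.62 without its 2 rats). Msln and Wt1 were opposed, with an r of -0.40 (rho -0.43, r -0.43 without its 2 rats).

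The opposition of Msln and Wt1 followed the slides. On slides 1 and 4 Msln was above its group means by 0.28 and 0.23 on average, and Wt1 below them by -0.20 and -0.26. On slides 2 and 3 Msln was at -0.28 and -0.27 and Wt1 at 0.27 and 0.29. Once the slide means were also removed, all 15 pairs were positive, from 0.22 to 0.87, with a median of 0.56. Msln and Wt1 then had an r of 0.65 (rho 0.59), Msln and Bnc1 went from -0.16 to 0.68, and Msln and Upk1b from 0.64 to 0.87. Not every pair of a surface protein gene and a transcription factor gene was opposed before the slide means were removed. For Bnc1 and Upk1b r was 0.46 (rho 0.46, r 0.37 without the 2 rats farthest for Bnc1). For Upk3b and Bnc1 it was 0.33 (rho 0.29, r 0.39 without the 2 rats farthest for Upk3b). Upk3b was below its group means on slide 1, by -0.12 on average. What differed between the slides was not tested.

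**Figure D4:**
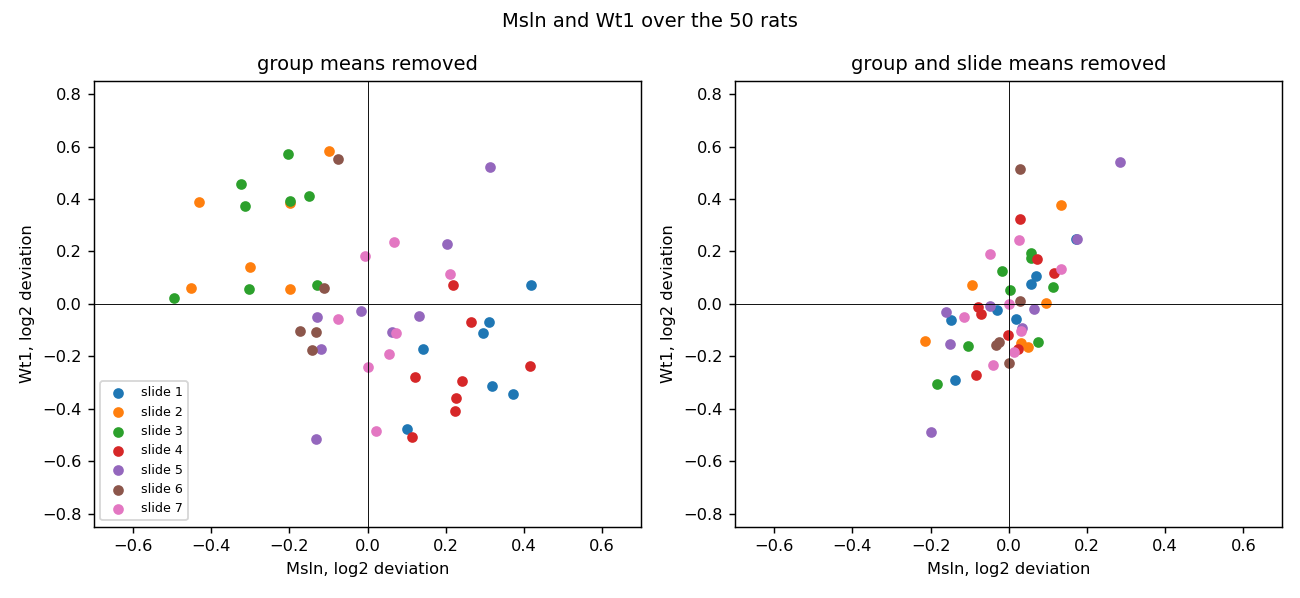
Deviation of Msln (x axis) and Wt1 (y axis), in log2 units, over the 50 rats, after removal of group means (left) and of group and slide means (right). Points are rats and colours the 7 slides. On the left, slides 1 and 4 lie to the lower right and slides 2 and 3 to the upper left (r = -0.40), and on the right the points rise together (r = 0.65).

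The genes with symbols that followed the mean of the 6 genes most closely over the 50 rats, group means removed, were Muc16 with an r of 0.84, Ahsp, a chaperone of alpha globin (0.72), the transcription factor Gata4 (0.71), Gpr64, an adhesion receptor (0.67), and Prr15 (0.66). They were followed by Tm6sf2 (0.64), Wfdc18 (0.63), Fam25a (0.62), Pla2g2a, a secreted phospholipase (0.62), and Ccdc80 (0.62). Of these 10, Muc16, Gpr64 and Fam25a were also under-expressed at D3, with differences of -0.78, -0.67 and -0.60, where 1.51% of all genes were called lower. The others of the 10 were not called, with differences from -0.58 for Pla2g2a to -0.05 for Tm6sf2. With slide means also removed, 4 of the 10 stayed in the list, namely Gata4 (0.89), Muc16 (0.82), Ahsp (0.78) and Fam25a (0.76), and Gpm6a (0.86) and Aldh1a2 (0.82), which makes retinoic acid, came in near the top.

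Relatives of the member genes were set beside them, 11 of which were tested. Upk3bl, the uroplakin 3b-like gene (Upk3bl1 in RefSeq), is the neighbouring protein-coding gene of Upk3b on the same chromosome and went the other way. At D0 it was at 5.39 to 6.43 in exposed rats and at 2.49 to 4.06 in controls, where it was not well above background on any array. It was over-expressed at D0 (limma adjusted p = 0.000108). With the processed signal the change was at least 5.46-fold. For this, the mean of exposed arrays was set against the lowest signal well above background on control arrays where the probe was dimmer. This bound holds for that signal only, not for other background corrections. The size rested on the background correction, since the difference at D0, 2.72 ± 0.51, was 0.70 ± 0.24 with normexp and 0.90 ± 0.26 with the deposited table, both still called. At D28 it was over-expressed (limma adjusted p = 0.0088), by at least 4.35-fold with the processed signal. The D28 difference was 0.56 ± 0.24 with normexp background correction and 0.74 ± 0.26 with the deposited table, and the call was lost with both. The call was also lost with the second probe of Upk3bl and with the arrays of D28 alone. At D3 its levels were 5.04, 4.52, 4.10, 5.07 and 4.64 in control rats and 5.91, 6.02, 7.00, 6.37 and 6.80 in exposed rats, a difference of 1.74 ± 0.51 (limma adjusted p = 0.0179) that was not called without exposed rat 3. With normexp this difference was 0.72 ± 0.24 and 0.80 ± 0.26 with the deposited table, both called. Between 0.861% and 2.77% of all genes were called higher at these days, 1.98% at D3. All exposed rats were above all controls at each of the 5 days, as were 4.75%, 3.35%, 2.23%, 2.2% and 2.77% of all genes from D0 to D180, and its second probe gave 1.87 ± 0.42 at D0 and 1.93 ± 0.48 at D3. At D90 and D180 the differences of 1.90 ± 0.51 and 1.88 ± 0.51 were not called, and at D90 it was well above background on 2 exposed arrays and 1 control array. Its levels at D90 were 3.17, 3.12, 3.98, 3.39 and 3.81 in control rats and 4.03, 4.34, 8.82, 5.13 and 4.69 in exposed rats, and without exposed rat 3 the difference was 1.05 ± 0.37 and not called. Its probe's likeness to Upk3b was not analysed here.

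Upk1a, the tetraspanin relative of Upk1b, was at 7.24 to 7.92 in exposed and 8.34 to 8.83 in control rats of D0, and was under-expressed, with a difference of -1.06 ± 0.17 (limma adjusted p = 1.28e-05). At D3 its difference was -0.46 ± 0.17 and not called, whereas Upk1b was called at D3 and not at D0. Whether the time course differed between both genes was not tested. The effect on Upk1a at D28, D90 and D180 differed from that at D0 by 0.91, 1.08 and 0.84 (limma interaction adjusted p = 0.0302, 0.00446 and 0.0407). In that direction 0.547%, 0.678% and 0.904% of all genes were called. By the same test, none of the 23 other mesothelial genes had an effect called different from D0 at D3, D28, D90 or D180. At D3 60 of all 25208 genes were called higher and 111 lower by it. A change of effect between D0 and D3 was thus not shown for the 23 genes. Lrrn3, a relative of Lrrn4, was under-expressed at D28, with a difference of -0.63 ± 0.16 (limma adjusted p = 0.0129). Without control rat 2, exposed rat 2 (the rat with skeletal muscle RNA) or exposed rat 5 this call was lost (-0.76 to -0.52 over the 10 fits), and with slide as a block the difference was -0.52. Upk2, Upk3a, Lrrn1, Lrrn2, Lrrn4cl, Bnc2, Calb1 and Mslnl were called at no day. Of the 23 other mesothelial genes, Dmkn, a secreted protein of skin and other epithelia, was over-expressed at D0 by 1.04 ± 0.24 (limma adjusted p = 0.00161). Dmkn went against most of its list, as 19 of the 23 were lower at D0, where 51.7% of all genes were lower. The median of the list was then -0.27, and none of its genes was called lower. At D28, D90 and D180 none of the 23 was called by limma, with 4, 2 and 4 at an unadjusted p below 0.05, as were 16.6%, 7.11% and 8.05% of all genes.

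**Figure D5:**
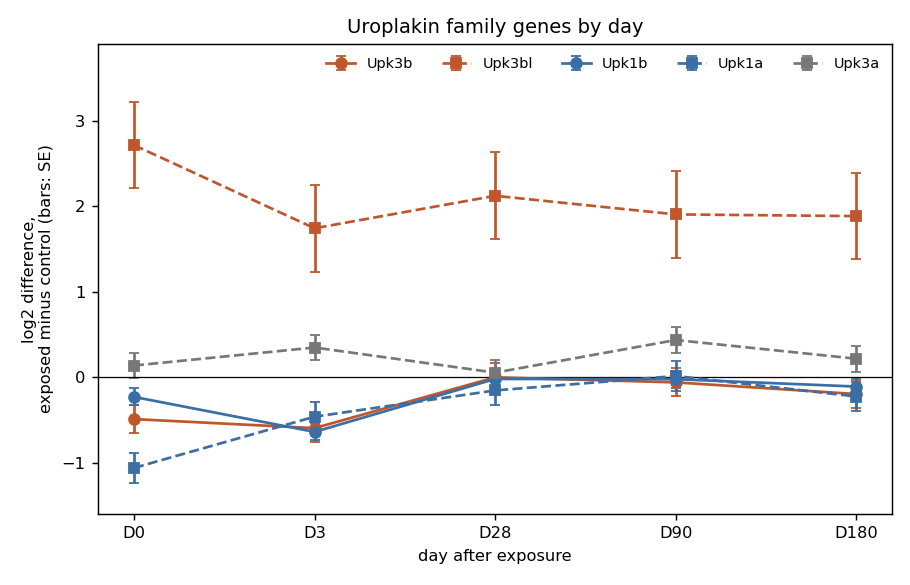
Log2 difference of exposed minus control rats (y axis) by day after exposure (x axis) for 5 uroplakin family genes. Points are limma estimates and bars their SE. Upk3bl stayed between 1.74 and 2.72 while Upk3b and Upk1b had their lowest values, -0.60 and -0.64, at D3.

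Promoters were looked at because the genes differed together at D3. The RefSeq table for the GRCr8 build held 5 of the 7 genes, Upk3b, Wt1, Lrrn4, Bnc1 and Upk1b. The 250 bases before the start of the 4 genes called at D3 are shown, with matches in capitals. The letters searched on both strands were GTGGGCG or GGGGGCG, the core of sites for Wt1 and the related Egr factors, GGAATG, the core of sites for TEAD factors, CANNTG, the E-box, and TGANTCA, the AP-1 site. Overlap between motifs was allowed, and none occurred in these 5 windows.
Upk1b, chr11:75459131-75459380, plus strand: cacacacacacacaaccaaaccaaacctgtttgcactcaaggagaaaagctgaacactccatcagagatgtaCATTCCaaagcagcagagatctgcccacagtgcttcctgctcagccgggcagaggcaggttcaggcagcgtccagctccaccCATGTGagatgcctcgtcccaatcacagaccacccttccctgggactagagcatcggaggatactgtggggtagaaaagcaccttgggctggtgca
Upk3b, chr12:26274241-26274490, minus strand: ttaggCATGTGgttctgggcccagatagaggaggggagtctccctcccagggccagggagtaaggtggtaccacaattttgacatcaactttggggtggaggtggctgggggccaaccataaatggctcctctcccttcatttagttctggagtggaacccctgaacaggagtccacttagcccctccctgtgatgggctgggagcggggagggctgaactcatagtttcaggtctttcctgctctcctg
Wt1, chr3:112021759-112022008, plus strand: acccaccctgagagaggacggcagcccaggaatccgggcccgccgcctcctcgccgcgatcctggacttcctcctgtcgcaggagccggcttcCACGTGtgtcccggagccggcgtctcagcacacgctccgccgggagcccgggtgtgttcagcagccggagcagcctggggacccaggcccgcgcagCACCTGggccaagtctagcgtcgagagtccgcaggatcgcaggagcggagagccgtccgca
Bnc1, chr1:145352535-145352784, minus strand: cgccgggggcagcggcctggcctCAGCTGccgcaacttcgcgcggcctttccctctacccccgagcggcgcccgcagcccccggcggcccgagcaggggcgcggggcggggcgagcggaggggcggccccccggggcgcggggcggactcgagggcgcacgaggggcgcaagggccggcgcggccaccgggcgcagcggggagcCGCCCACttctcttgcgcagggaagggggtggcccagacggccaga
An E-box was in all 5 promoters, including that of Lrrn4, and in 65.5% of all 33469 promoters of the table. The TEAD core was in those of Upk1b, at 178 bases before the start, and Lrrn4, at 214, and in 12.1% of all. The Wt1 and Egr core was in that of Bnc1, at 46 bases before the start, and in 17.8% of all. The AP-1 letters were in none of the 5 and in 6.34% of all. The 5 windows differed in base content, with 82% G and C for Bnc1 and 71.6% for Wt1 against 53.2% to 56.4% for Lrrn4, Upk1b and Upk3b, beside a median of 51.2% over all promoters. These letters are a description, and a window without a match says only that the letters are not in it.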

How the data were processed

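RNA from the accessory lung lobe of 50 rats was labelled with Cy3 and hybridised to one-colour Agilent rat arrays. The deposited scanner files hold, per the file headers, the intensity of 62976 spots on a linear scale, made by the authors with Agilent Feature Extraction 11.0.1.1 (a version also in the submitters' processing notes). The processed signal used here is the intensity after background subtraction. The authors also deposited a table of values for 58753 spots, which from its values is a quantile normalized median intensity with the scale linear, and which was used as an alternative. The study's methods name a batch correction without its terms, and it was not used here.

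Control spots and spots marked as outliers were left out, spots of a probe were averaged, and the log2 intensity was quantile normalized. Of 30367 probes, 29549 were kept, those that on at least 5 arrays exceeded what 95% of the 308 negative control spots reached. The probe with the highest mean stood for each of 25208 genes. Limma 3.58.1 in R 4.3.3 was fitted on all 50 arrays, each of the 10 groups having its own mean. Calls needed a Benjamini-Hochberg adjusted p below 0.05 and 1.5-fold, two-sided. The number of arrays limits the precision. The fit and the calls were tested on simulated gene values without slide effects, and the steps before the fit were not. Groups came from the labels, and slides from the scanner files.

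The members and lists were chosen with earlier results of these data known. All 7 members were named in every comparison. Of the 23 other mesothelial genes and 12 symbols of relatives, of which Upk3bl1 was not on the array, where this gene is Upk3bl, those called were named (at most 8), as were the 10 genes most alike to the member mean and Retnla and Lpo as checks of exposure. Other genes named, such as Efemp1 or Ildr2, were chosen after their values were seen. Alternatives were another scaling, background correction, filter, probe choice and call rule, slide or replicate number as a block, that day's arrays only, and each rat left out. Their effect is given in the closing section.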

Additional observations from a re-analysis of the deposited data

Results flagged for a closer look

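Among the 7 mesothelial genes, 70 sets of 5 rats (a gene in a group) were searched for a rat that stood apart from the rest of its group, and 5 were found, where chance gives about 1 in 20. Upk3b was at 8.89 in control rat 5 of D0, with the next control at 8.30. Wt1 was at 8.14 in exposed rat 3 of D90, with the next at 7.56. Upk1b was at 13.14 in exposed rat 1 of D28, the lowest of its group, with the next at 13.51. Calb2 was at 3.44 in control rat 3 of D0, not well above background, and at 4.61 in exposed rat 5 of D28, which was well above background. No cause of these values was tested.

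The exposure effect on Upk1a differed between later days and D0 by limma's interaction test, by 0.91 at D28, 1.08 at D90 and 0.84 at D180 on the log2 scale. At each of these days the effect was closer to 0 than the decrease at D0.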

How the results depend on the processing

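No difference reversed in the sense of a called value changing sign. At D3, 4 of the 7 mesothelial genes were called. The count was 1 with normexp background correction and with slide as a block, and 1 to 4 on leaving out a rat. It was 2 with the deposited table, with the arrays of D3 alone and with the probe of each gene that changed least. At D0 and D180, where none was called, 1 was with no fold limit, at D180 also 1 with 75th percentile scaling and 0 to 1 on leaving out a rat. The median of 6 genes at D3 (-0.61) was -0.46 with the probe of each gene that changed least, which was picked by its difference. Of the other mesothelial genes, 1 was called at D0, but 2 with 75th percentile scaling or unadjusted p, 5 with no fold limit and 1 to 3 on leaving out a rat (3 without control rat 2, 2 without exposed rat 1 or 5). At D3, 7 were called, but 4 with the deposited table or the arrays of D3 alone. At D28 none was, but 1 with no fold limit.

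Of the relatives, 2 were called at D0 but 1 with the filter on all 50 arrays. At D3 the count of 1 was 0 with that filter, 3 with no fold limit and 0 to 2 on leaving out a rat (2 without control rat 3 or 4 or exposed rat 4). At D28 the count of 2 was 0 with normexp, the deposited table or that day's arrays. It was 1 with the filter, slide as a block or the least changed probe, and 1 to 2 on leaving out a rat. At D90 and D180 the count of 0 was 1 with 75th percentile scaling, slide as a block or unadjusted p, at D180 also 1 with that day's arrays, and at D90 0 to 1 on leaving out a rat (1 without exposed rat 1 or 2). The interaction call of 1 gene was 0 with 75th percentile scaling or normexp at D28 and D180 and with the deposited table at D28, and 3 at D90 with slide as a block. Of the 10 genes most alike to the members, 4 were shared once slide means were removed.

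The settings for the interaction, the correlations without the 2 farthest rats and Upk3bl at D90 without exposed rat 3 were chosen after seeing the data. With the replicate number as a block the members called at D3 were 4 and every difference was as without it (Wt1 -0.71). Of 25 pairs of control and exposed rats with the same number 8 had deviations correlated above 0.1 (-0.34 to 0.46) and 7 correlated best with their own number, so the numbers do not pair the rats. With normexp, 148 genes were called lower at D3, and 170 with the deposited table, 198 with the arrays of D3 alone and 405 with slide as a block, against 380. Calb2 lay at background on most arrays, which limits what can be said of it.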
